A study of Mus musculus with 8 samples.

Results

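The chaperones, folding enzymes and degradation genes of the endoplasmic reticulum (ER) were followed here as a set of 36 genes, taken from the arrays by gene symbol. All 36 had at least 1 probe on the array, with 71 probes in all, of which 66 lay above the detection limit on at least 4 of 8 arrays. The comparison covered 35 of the 36 genes, among 15097 genes tested in the whole series. Derl3 was the gene not tested. The genes were ordered by role into BiP and GRP94 with their co-factors (9 genes), disulphide bond formation (6), lectin chaperones (2), ER-associated degradation (9), stress sensors with XBP1 (3), CREC calcium-binding proteins (5) and the translocon (2).

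CT26-FL3 is a highly metastatic mouse colon cancer line that was obtained from CT26 by repeated passage through the liver of mice. Liver lesions were minced and digested with enzymes, and the cells were kept in culture for a short time to lose host stroma. It was compared with its parental line CT26, which metastasises poorly to the liver. Both lines are labelled male and Balb/c, and both were grown in DMEM with serum and antibiotics, with no further agent given in the labels. Each line was measured in 4 samples on 1-colour arrays from total RNA. Each is 1 cell line, so a difference between them belongs to this pair of lines. The design text calls the samples independent without describing separate cultures. The p-values therefore reflect only how these samples vary, and part of that variation may be technical.

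Secreted and membrane proteins enter the ER through the translocon and fold there with the help of the Hsp70 chaperone BiP, the Hsp90 chaperone GRP94, the lectin chaperones and the protein disulphide isomerases. Proteins that fail to fold are sent back to the cytosol and degraded, a route called ER-associated degradation. When unfolded proteins build up, the sensors IRE1, ATF6 and PERK start the unfolded protein response, in which spliced XBP1 and cleaved ATF6 raise the transcription of chaperone and degradation genes, while PERK acts through translation and the transcription factor ATF4.

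Levels are given as scaled intensity, the intensity of a probe on an array after the array's 75th percentile was set to 1000. A level belongs to its own probe and is not compared with the level of another probe. Differences are log2 fold changes of CT26-FL3 over CT26 with the standard error (SE) and the adjusted p of limma, with n = 4 arrays per line throughout, and a gene rose or fell where the adjusted p was below 0.05. The unscaled 75th percentiles ran from 808 to 1151, and the share of probes over the detection limit from 52.8 to 58.2%. Over the genes tested, with 1 probe per gene, arrays of 1 line correlated at r from 0.996 to 0.998 and arrays of different lines at 0.982 to 0.984. In such bulk samples fewer cells of a type and less RNA per cell cannot be told apart.

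The folding genes moved in both directions, and most changes were small. Of the 35 genes, 9 rose in CT26-FL3 and 12 fell, while 14 did not pass the test. Over all genes tested, 24.1% rose and 25.3% fell, so that 49.5% were called in one direction or the other. The median log2 fold change was -0.08 over the 35 genes and -0.01 over all genes tested, and the median absolute change was 0.24 over the 35 genes and 0.21 over all genes tested. A called change of at least 2-fold was found in 1 gene that rose, Rcn3, and 1 that fell, Sdf2l1, and in 5.5% of all genes tested. The arrays of the lines did not overlap in 9 genes that were higher and 13 that were lower in CT26-FL3, against 47.4% of all genes tested in either direction. Within replicates 1 and 2 of both lines, 3 genes rose and 5 fell, with 4205 of all genes called. Within replicates 3 and 4, 5 rose and 8 fell, with 4183 of all genes called. No called gene changed direction, and with every array 7472 of all genes were called.

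**Figure D1:**
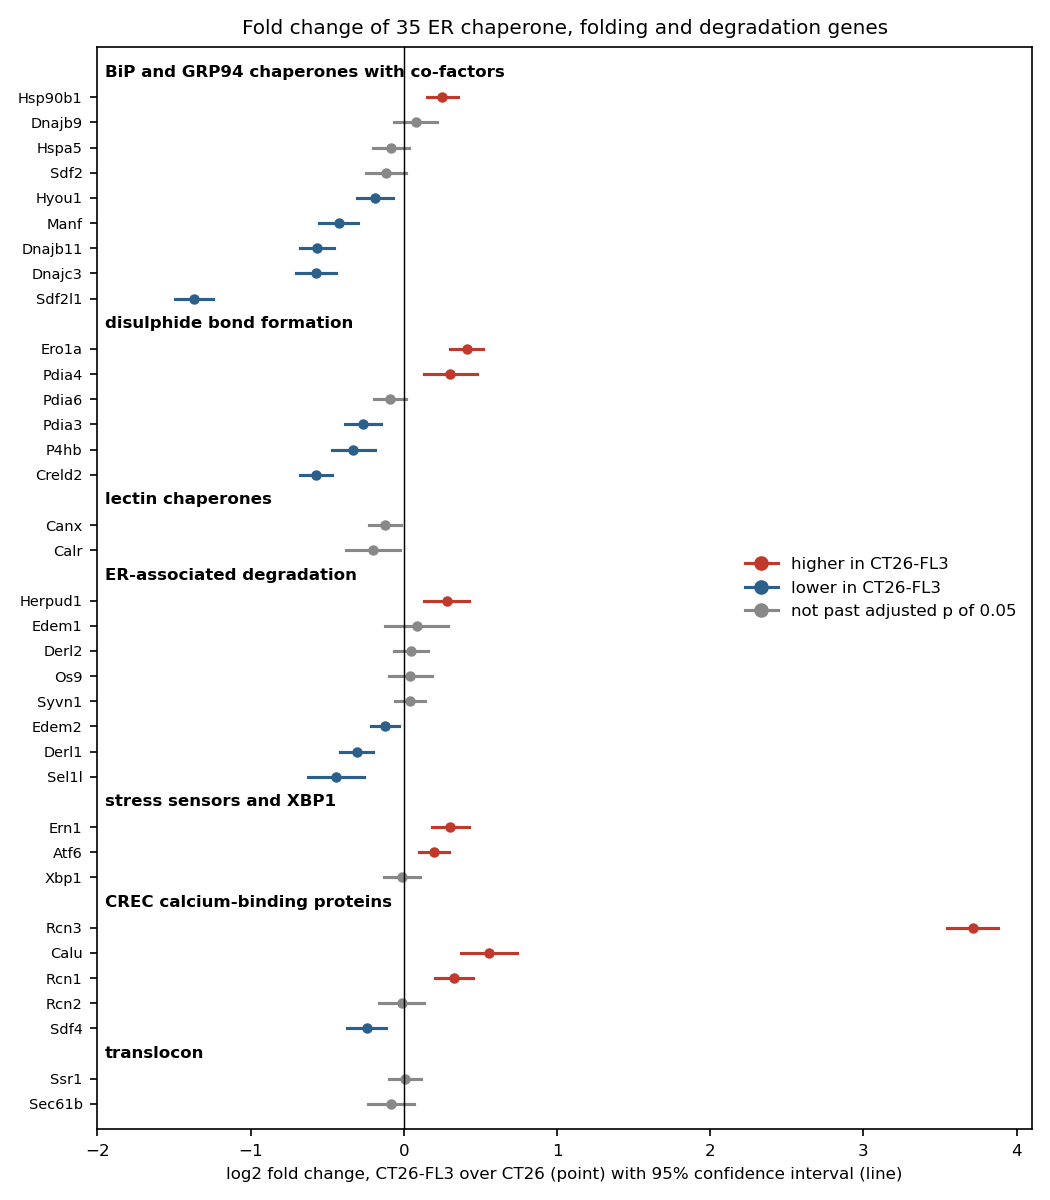
Log2 fold change of CT26-FL3 over CT26 (horizontal axis) for each of the 35 genes tested, ordered by role; points are estimates, lines their 95% confidence intervals, and colour gives the call (n = 4 arrays per line). Rcn3 at 3.71 and Sdf2l1 at -1.37 stand far from the other genes, which lie between -0.57 and 0.56.

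BiP transcription in mammalian cells is known to depend on the ER stress response element, ERSE, which binds NF-Y and ATF6. The promoters are shown here because chaperone and degradation genes are known targets of the unfolded protein response, while the set moved in both directions. Whether each gene of the set is such a target was not tested. RefSeq promoter windows of GRCm38.p6, from 250 bases before to 50 bases after the start, were found for 31 of the 36 genes, and not matched for Manf, Hyou1, Atf6, Derl1 and Rcn1. They were searched on both strands for CCAAT and, after 9 letters, CCACG (ERSE), for ATTGG and, after 1 letter, CCACG (ERSE-II), and for TGACGTGG (the element bound by XBP1, UPRE). The ERSE letters were present in 9 of 31 genes (29.0%), against 37 of 27025 genes of the promoter table (0.137%). Hspa5, whose dependence on ERSE was known beforehand, is among these 9, so the share is a description and not a test. The ERSE-II letters were present in 2 of 31 genes (6.45%), against 12 of 27025 (0.0444%). In this exact form only, the UPRE letters were in 0 of the 31 windows and in 193 of 27025 genes (0.714%). UPRE and ERSE-II forms that differ by a letter were not searched, such as the tgacgtga in the Hspa5 sequence below. ERSE with at most 1 fixed letter differing was searched after the exact matches were seen. It was in 14 of 31 genes (45.2%), against 466 of 27025 (1.72%). The exact ERSE matches, of which Hsp90b1 has 2, are given along the strand on which the element reads. They have 8 flanking bases on each side and the fixed letters in capitals.
Calr (chr8:84847067-84847101, plus strand): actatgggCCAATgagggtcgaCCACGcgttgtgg
Canx (chr11:50325792-50325826, minus strand): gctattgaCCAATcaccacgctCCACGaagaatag
Creld2 (chr15:88819512-88819546, minus strand): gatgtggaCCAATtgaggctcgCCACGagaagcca
Derl3 (chr10:75893234-75893268, minus strand): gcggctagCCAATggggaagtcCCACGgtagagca
Dnajc3 (chr14:118937819-118937853, plus strand): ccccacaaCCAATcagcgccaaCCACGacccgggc
Hsp90b1 (chr10:86705525-86705559, plus strand): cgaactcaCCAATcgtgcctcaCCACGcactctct
Hsp90b1 (chr10:86705630-86705664, minus strand): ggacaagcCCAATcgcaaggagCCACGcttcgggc
Hspa5 (chr2:34772017-34772051, plus strand): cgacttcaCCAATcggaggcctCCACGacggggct
Pdia6 (chr12:17266483-17266517, plus strand): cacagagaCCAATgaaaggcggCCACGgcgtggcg
Syvn1 (chr19:6046524-6046558, plus strand): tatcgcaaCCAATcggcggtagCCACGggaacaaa

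The 2 ERSE-II matches, which do not overlap an ERSE match, are those of a BiP co-chaperone and of a degradation factor, and their fixed letters are in capitals.
Dnajb11 (chr16:22857844-22857870, plus strand): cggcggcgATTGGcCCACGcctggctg
Herpud1 (chr8:94386369-94386395, plus strand): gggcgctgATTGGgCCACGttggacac

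The 250 bases before the start of 3 genes are printed whole: Hspa5, which encodes BiP and holds the element in capitals, and the genes with the largest rise and the largest fall, Rcn3 and Sdf2l1, whose windows held none of the 3 letter patterns. Hspa5 did not pass the test.
Hspa5 (chr2:34771840-34772089, plus strand): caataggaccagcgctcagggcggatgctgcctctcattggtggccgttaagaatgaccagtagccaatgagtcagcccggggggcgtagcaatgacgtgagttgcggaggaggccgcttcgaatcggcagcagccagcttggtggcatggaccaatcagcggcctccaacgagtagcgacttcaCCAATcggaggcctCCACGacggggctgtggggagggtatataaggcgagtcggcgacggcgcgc
Rcn3 (chr7:45092214-45092463, minus strand): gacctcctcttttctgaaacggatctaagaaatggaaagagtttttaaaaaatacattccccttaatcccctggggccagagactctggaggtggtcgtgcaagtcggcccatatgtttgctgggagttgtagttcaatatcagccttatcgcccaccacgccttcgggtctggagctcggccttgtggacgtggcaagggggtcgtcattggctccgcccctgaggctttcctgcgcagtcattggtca
Sdf2l1 (chr16:17132384-17132633, minus strand): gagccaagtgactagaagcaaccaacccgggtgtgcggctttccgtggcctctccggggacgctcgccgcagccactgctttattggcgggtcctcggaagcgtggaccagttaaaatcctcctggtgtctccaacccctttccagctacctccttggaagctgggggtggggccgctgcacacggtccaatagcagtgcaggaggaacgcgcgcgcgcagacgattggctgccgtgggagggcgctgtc

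Matches were found among genes of either direction and among those that did not pass. At least 1 of the 3 patterns was in 2 of 7 windows of genes that rose, in 3 of 9 of genes that fell and in 5 of 14 of genes that did not pass. The remaining match was in Derl3, which was not tested. A match is a description of these letters only, and was not tested as a binding site.

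BiP itself did not pass the test, while 5 of the 9 genes of its group fell and 1 rose, with a median log2 fold change of -0.19. Hspa5 had scaled intensities of 90270.1, 86932, 92126 and 90242 in CT26-FL3 arrays and of 88239, 97707, 95037 and 100263 in CT26 arrays. The lines overlapped, and the log2 fold change was -0.08 (95% interval -0.20 to 0.03, adjusted p = 0.214). The files do not mark saturated spots, and Hspa5, Hsp90b1, P4hb, Pdia6 and Sec61b were the brightest of the 36 genes, so their differences may be compressed. On the same arrays the brightest gene spots read 629766 to 728713 unscaled units, against at most 165164 for these genes. The GRP94 gene Hsp90b1 read 114804, 114141, 118075 and 113742 in CT26-FL3 arrays, against 92830.5, 99776, 94718 and 99492 in CT26 arrays. All CT26-FL3 arrays were above all CT26 arrays, and the gene rose by 0.25 (SE 0.04, adjusted p = 0.00132), or 1.19-fold. A dimmer probe of Hsp90b1 gave -0.14 (SE 0.07, adjusted p = 0.144), so the rise belonged to 1 of its 2 probes.

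The steepest fall of the whole set was that of Sdf2l1, which encodes a small ER protein that works with BiP and its J-domain co-factors. Its scaled intensity was 1695, 1727, 1580.0 and 1647 in CT26-FL3 arrays and 4302, 4306, 4559 and 4011 in CT26 arrays. The lines were far apart, at 1662 ± 64.0 in CT26-FL3 and 4295 ± 224 in CT26 (SD, n = 4 each). The log2 fold change was -1.37 (SE 0.05, adjusted p = 2.12e-07), a level 2.58-fold lower in CT26-FL3, which ranked 476 by absolute change among 15097 genes. The related gene Sdf2 gave 18431, 21293, 20513 and 19669.7 in CT26-FL3 arrays, against 21511, 20588, 21671 and 22721 in CT26 arrays. These overlapped, and Sdf2 did not pass the test (-0.12, 95% interval -0.25 to 0.02, adjusted p = 0.129).

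The J-domain co-chaperones Dnajb11 and Dnajc3, which hand unfolded proteins to BiP in the ER lumen, both fell. Dnajb11 read 15119, 14072, 15247 and 14226 in CT26-FL3 arrays and 21073, 22217, 22668 and 20902 in CT26 arrays. Every CT26-FL3 array was below every CT26 array, with a fall of 0.57 (log2 fold change -0.57, SE 0.05, adjusted p = 2.67e-05). Dnajc3, which also inhibits PERK, read 5984, 6099, 6620.2 and 6639 in CT26-FL3 arrays, against 10037, 9574, 9229 and 8877 in CT26 arrays. The arrays again did not overlap, and the log2 fold change was -0.57 (SE 0.06, adjusted p = 6.29e-05). Its 3 other probes fell too, with log2 fold changes of -0.63, -0.48 and -0.33.

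Manf, a secreted and ER-resident factor that binds BiP, read 19590.1, 20823, 21491 and 21617 in CT26-FL3 arrays and 27145, 27704, 27020.3 and 30268 in CT26 arrays. It fell without overlap (-0.42, SE 0.06, adjusted p = 0.000278). Hyou1, the large Hsp70-related exchange factor of BiP, read 14919, 14536, 15238 and 15894 in CT26-FL3 arrays, against 17551, 15984, 17983 and 17507 in CT26 arrays. The highest CT26-FL3 array lay just under the lowest CT26 array, and the gene fell by a small amount (-0.19, SE 0.05, adjusted p = 0.0171). That call was lost in 5 of 23 alternatives, among them quantile normalization (adjusted p = 0.0546) and no filter on dim probes (adjusted p = 0.0691). Dnajb9, a J-domain protein that is a known target of XBP1 and represses IRE1, read 1639.6, 1844, 1719 and 1544 in CT26-FL3 arrays and 1579, 1528, 1667 and 1605 in CT26 arrays. Those overlapped, and the gene did not pass (0.08, 95% interval -0.06 to 0.22, adjusted p = 0.331).

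**Figure D2:**
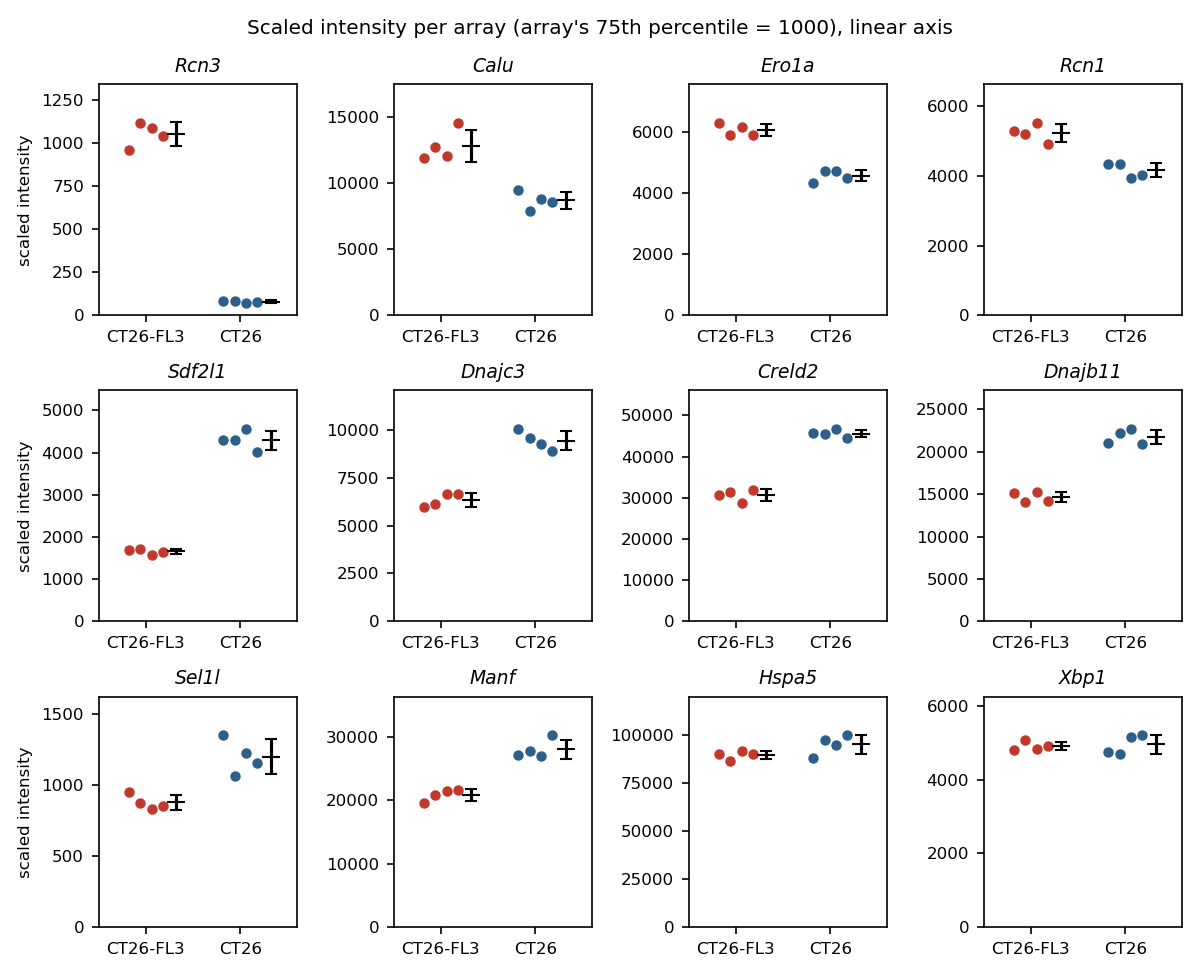
Scaled intensity (linear vertical axis from 0, array's 75th percentile set to 1000) of 12 of the genes on each of the 4 CT26-FL3 arrays (left, red) and 4 CT26 arrays (right, blue), with mean and SD in black. The lines are apart in the genes that rose or fell, such as Rcn3 at 958 to 1116 against 72.3 to 86.3, and overlap in Hspa5 and Xbp1.

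Disulphide bond formation moved in both directions, with 2 genes higher and 3 lower of 6. Ero1a, the oxidase that recharges protein disulphide isomerase, read 6292, 5906, 6162 and 5911 in CT26-FL3 arrays, against 4332, 4718, 4709.9 and 4502 in CT26 arrays. It rose by 0.41 (SE 0.05, adjusted p = 0.000138), or 1.33-fold, with no overlap, and its other probe rose by 0.76 (SE 0.10). Pdia4, an isomerase of the family, read 4659, 3795, 4250.1 and 4419 in CT26-FL3 arrays and 3139, 3458, 3646 and 3616 in CT26 arrays. The lowest CT26-FL3 array was close to the highest CT26 array, and the rise was 0.30 (SE 0.08, adjusted p = 0.01).

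The isomerases and the cysteine-rich protein of the group that fell did so by different amounts. Creld2, an ER protein of this kind induced by ER stress, read 30626, 31433, 28739 and 31831 in CT26-FL3 arrays and 45618, 45399, 46688 and 44580.4 in CT26 arrays. The lines were well separated, with a log2 fold change of -0.57 (SE 0.05, adjusted p = 1.66e-05). P4hb, the protein disulphide isomerase itself, read 60440.1, 62531, 62368 and 65764 in CT26-FL3 arrays, against 86191, 72023, 77416 and 80105 in CT26 arrays. It fell without overlap (-0.33, SE 0.06, adjusted p = 0.00221). Pdia3, the isomerase that works with calnexin and calreticulin, read 15491, 16070.3, 17243 and 15652 in CT26-FL3 arrays and 18611, 19906, 18894 and 20026 in CT26 arrays. Its fall was -0.27 (SE 0.05, adjusted p = 0.00263), again with no overlap.

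Pdia6 read 94166, 89348, 92944 and 88696 in CT26-FL3 arrays and 94458, 93666, 99217 and 100809 in CT26 arrays. The lines overlapped, and the probe did not pass the test (-0.09, 95% interval -0.19 to 0.02, adjusted p = 0.145). Its 3 other probes gave 0.07, -0.14 and -0.48, and the last of these fell (adjusted p = 0.00775).

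Neither lectin chaperone passed the test with limma, although both had an unadjusted p below 0.05 and were lower in CT26-FL3. Calr, calreticulin, read 30119, 30634, 30692 and 26372 in CT26-FL3 arrays, against 34558, 34860.1, 36095 and 29731 in CT26 arrays. Replicate 4 was the lowest array of each line, and the lines overlapped (-0.20, 95% interval -0.37 to -0.02, adjusted p = 0.0621). Without CT26 replicate 4 the log2 fold change was -0.26 and passed (adjusted p = 0.0151). A dimmer probe of Calr fell by 0.21 on the log2 scale (SE 0.05, adjusted p = 0.00704).

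Canx, the membrane-bound calnexin, read 18378, 18818, 18253 and 16855 in CT26-FL3 arrays and 19866, 19563, 19668 and 19597 in CT26 arrays. All CT26-FL3 arrays were below all CT26 arrays, but by a small amount that just missed the threshold (-0.12, 95% interval -0.23 to -0.02, adjusted p = 0.0537). Its other probes gave -0.15 and -0.10.

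ER-associated degradation showed 1 rise and 3 falls among 8 genes tested, with a median log2 fold change of 0.04. Herpud1, a membrane protein that joins the degradation complex, read 16036, 16283, 18553 and 15166 in CT26-FL3 arrays and 13348, 13806, 13318 and 13775 in CT26 arrays. It rose without overlap (0.28, SE 0.06, adjusted p = 0.00636). Sel1l, the adaptor of the ubiquitin ligase HRD1, read 951, 877, 834 and 857 in CT26-FL3 arrays, against 1353, 1062, 1226 and 1155 in CT26 arrays. It fell by 0.44 on the log2 scale (SE 0.08, adjusted p = 0.00175), and its second kept probe, at -0.23, fell as well.

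Derl1, a channel protein of the pathway, read 8833, 8306, 8943 and 8560.5 in CT26-FL3 arrays and 10722, 10325, 11219.9 and 10611 in CT26 arrays. It fell clear of the CT26 range (-0.31, SE 0.05, adjusted p = 0.000633). Of its other probes, 2 fell (-0.37 and -0.29) and 1 gave 0.12 (adjusted p = 0.0976).

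Edem2, which trims mannose from misfolded glycoproteins, read 2073, 2012, 2106 and 1975 in CT26-FL3 arrays and 2248, 2223, 2185 and 2242 in CT26 arrays. The arrays did not overlap, but the fall was small (-0.12, SE 0.04, adjusted p = 0.0322) and was lost when single arrays were left out. The adjusted p was 0.0768 without CT26-FL3 replicate 2, 0.0825 without CT26-FL3 replicate 4, 0.0731 without CT26 replicate 1, 0.0534 without CT26 replicate 2 and 0.0735 without CT26 replicate 4.

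Edem1, Os9, Syvn1 and Derl2 did not pass the test, and the lines overlapped in each. Edem1, a mannosidase-like protein of the same family as Edem2, ranged from 6445 to 7057 in CT26-FL3 arrays and from 5619 to 7552 in CT26 arrays (0.09, 95% interval -0.12 to 0.29). The lectin gene Os9, whose product delivers misfolded glycoproteins to HRD1, ranged from 7309.8 to 8316 in CT26-FL3 arrays and from 7119 to 8027 in CT26 arrays (0.04, 95% interval -0.10 to 0.18). Syvn1, which encodes HRD1, ranged from 34704 to 36479 in CT26-FL3 arrays and from 33527 to 36031 in CT26 arrays (0.04, 95% interval -0.06 to 0.14). HRD1 and its adaptor were thus not called alike, as Sel1l fell, but the difference between these genes was not tested. Derl2 ranged from 15107 to 16423 in CT26-FL3 arrays and from 14799.7 to 15848 in CT26 arrays (0.05, 95% interval -0.06 to 0.16). Derl3, the third derlin, was not above the detection limit on any array and read 2.94 to 9.14 in CT26-FL3 arrays and 4.89 to 9.84 in CT26 arrays, so no fold is given.

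Of the sensors, Ern1 and Atf6 rose slightly and Xbp1 did not pass. Ern1, which encodes IRE1alpha, read 2418, 2273, 2351 and 2226 in CT26-FL3 arrays, against 2021, 1845, 1777 and 1866 in CT26 arrays. The ranges did not overlap, and the gene rose by 0.30 (SE 0.05, adjusted p = 0.00154). Atf6 read 8227, 8022, 7645 and 8145 in CT26-FL3 arrays and 7028, 6814, 6959.9 and 7111 in CT26 arrays. It rose by 0.20 (SE 0.04, adjusted p = 0.00436), but its other probe gave -0.064 (adjusted p = 0.288).

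Xbp1 read 4809.5, 5068, 4838 and 4919 in CT26-FL3 arrays, against 4732, 4701, 5157 and 5206 in CT26 arrays. The lines overlapped fully, at 4909 ± 116 in CT26-FL3 and 4949 ± 269 in CT26 (SD, n = 4 each), with a log2 fold change of -0.01 (95% interval -0.13 to 0.11, adjusted p = 0.883). No source used here says whether this probe separates the spliced form of Xbp1. IRE1 and PERK are also controlled through activity and phosphorylation, which an array of mRNA does not measure.

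The CREC proteins, which bind calcium through EF hands in the ER and secretory pathway, gave the largest rise of the set. Rcn3, a reticulocalbin of the ER lumen, read 958, 1116, 1087 and 1040.1 in CT26-FL3 arrays, against 86.3, 84.8, 72.3 and 77.3 in CT26 arrays. The lines were separated by a wide gap, at 1050.1 ± 69.0 in CT26-FL3 and 80.2 ± 6.55 in CT26 (SD, n = 4 each). Its log2 fold change was 3.71 (SE 0.07, adjusted p = 6.87e-09), a 13.1-fold rise that ranked 36 by absolute change among 15097 genes. A second probe of Rcn3 gave 3.30 (SE 0.11, adjusted p = 8.53e-08).

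Calu, calumenin, read 11934, 12733, 12019.9 and 14543 in CT26-FL3 arrays and 9442, 7914, 8832 and 8596 in CT26 arrays. It rose without overlap by 0.56 (SE 0.08, adjusted p = 0.000487), or 1.47-fold. Its other probe gave 0.23 (adjusted p = 0.0496), just past the threshold and with overlap between the lines. Rcn1, a reticulocalbin of the ER, read 5289, 5198, 5511 and 4897 in CT26-FL3 arrays, against 4333, 4332, 3946 and 4026 in CT26 arrays. The gene rose by 0.33 (SE 0.06, adjusted p = 0.00121), with every CT26-FL3 array above every CT26 array.

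The family did not move together. Sdf4, which encodes Cab45 of the Golgi lumen, read 14924, 15384, 15853 and 15972 in CT26-FL3 arrays and 19048, 16920.2, 19516 and 18070.4 in CT26 arrays. It fell (-0.24, SE 0.06, adjusted p = 0.00659), as did its other probes, at -0.23 and -0.46. Rcn2 ranged from 3581 to 4078 in CT26-FL3 arrays and from 3579 to 4143 in CT26 arrays, and did not pass (-0.01, 95% interval -0.16 to 0.14, adjusted p = 0.889).

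Neither gene of the translocon passed the test (limma, 0 of 2 at an unadjusted p below 0.05), and their levels overlapped between lines. Sec61b, a small subunit of the channel, ranged from 123692 to 148681 in CT26-FL3 arrays and from 136915 to 145613 in CT26 arrays (-0.08, 95% interval -0.23 to 0.07, adjusted p = 0.328). Ssr1, a subunit of the translocon-associated protein complex, ranged from 33050.1 to 35251 in CT26-FL3 arrays and from 32883 to 35956 in CT26 arrays (0.01, 95% interval -0.10 to 0.11, adjusted p = 0.929). Its 4 other probes lay between -0.16 and 0.19, and none passed.

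Several probes of a gene were read for 18 genes, and none had probes called in opposite directions. Of these 18 genes, with 49 kept probes, 6 had every probe called in 1 direction, namely Calu, Dnajc3, Ero1a, Rcn3, Sdf4 and Sel1l. A called probe stood beside another of opposite sign in 4 genes, which were Hsp90b1, Atf6, Derl1 and Pdia6. No probe was called in 7 genes. The single-probe genes include Sdf2l1, Dnajb11, Creld2, Manf and Hspa5, so those have no second probe to set beside the first.

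**Figure D3:**
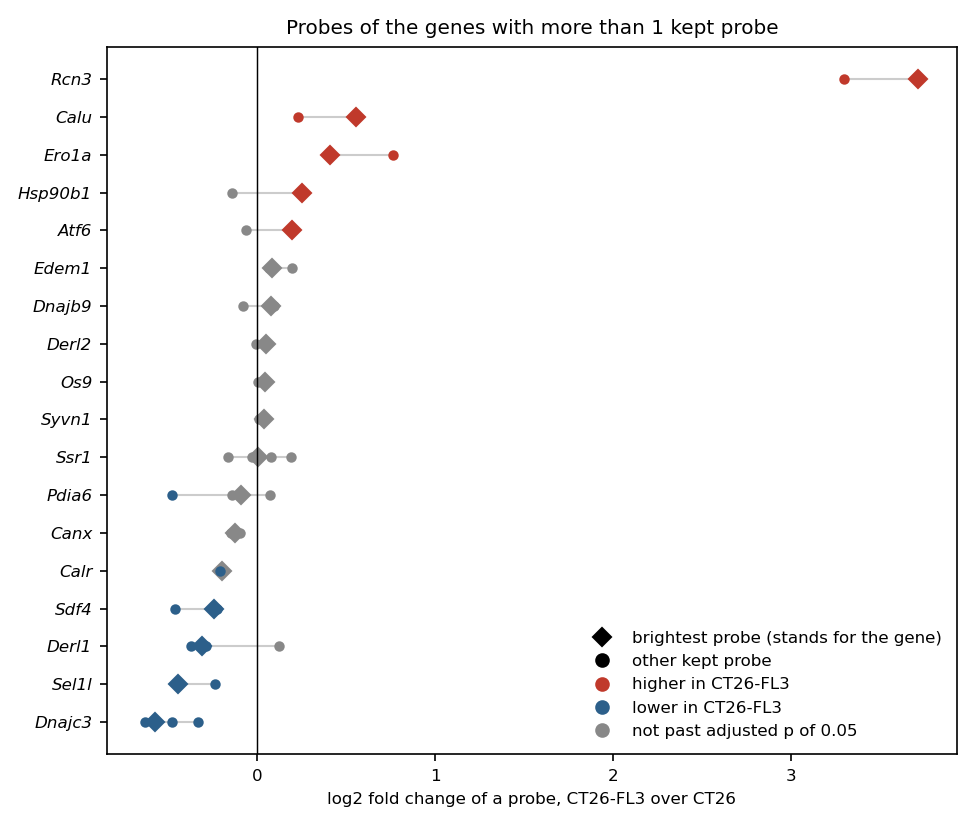
Log2 fold change of CT26-FL3 over CT26 for every kept probe of the 18 genes with more than 1 kept probe; diamonds mark the brightest probe, which stands for the gene, and colour gives the call. Rcn3 at 3.71 and 3.30 and the 4 falling probes of Dnajc3 lie on 1 side of 0, while Hsp90b1, Atf6, Derl1 and Pdia6 have probes on both sides.

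Other ER genes, in 6 lists with 117 genes of which 109 were tested, gave 21 rises and 51 falls, with 37 that did not pass and a median log2 fold change of -0.15. The 21 ER chaperone co-factors and prolyl isomerases, which help collagens and other proteins fold, had 5 rises and 12 falls. Among them Fkbp11 fell most, at -0.80 (SE 0.08, adjusted p = 4.56e-05), followed by the cyclophilin gene Ppic (-0.63) and Fkbp10 (-0.54). Of 17 other disulphide and redox genes tested, 8 fell, led by Vkorc1l1 (-0.50), Gpx8 (-0.38) and Erp29 (-0.36), and 1 rose, the oxidase gene Qsox1 (0.27, adjusted p = 0.0373), which is named after its values were seen. The rise of Qsox1 did not pass without CT26-FL3 replicate 3 or 4 or CT26 replicate 1 or 2, each of which left 0 genes of this list higher.

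Of the 10 other genes of the lectin cycle and of glycan trimming tested, 5 fell, with the largest falls in Calr3 (-0.59), malectin, Mlec (-0.52), and Edem3 (-0.31). None of them rose with limma, with 1 higher at an unadjusted p below 0.05, and 1 rose without CT26 replicate 1. The 26 genes of the translocon, signal peptidase and N-glycosylation had 4 rises and 14 falls, with Ssr4, Dad1 and Ostc at -0.35 each. Of 22 other degradation genes tested, 4 rose and 9 fell. The ubiquitin-conjugating enzyme gene Ube2g2 rose by 0.59, while Selenok was at -0.40.

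Other sensors and processing proteases had 7 rises and 3 falls among 13 genes tested, with a median log2 fold change of 0.26. The membrane-bound transcription factor genes Creb3l1 and Creb3l4 rose by 1.15 (SE 0.11, adjusted p = 3.65e-05) and 0.97. On the CT26 arrays, Creb3l1 exceeded the detection limit in 3 of 4. The RNA ligase gene Rtcb, whose product joins the spliced Xbp1 mRNA, rose by 0.41. PERK, encoded by Eif2ak3, fell slightly (-0.24, adjusted p = 0.0124), a gene named after its values were seen.

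**Figure D4:**
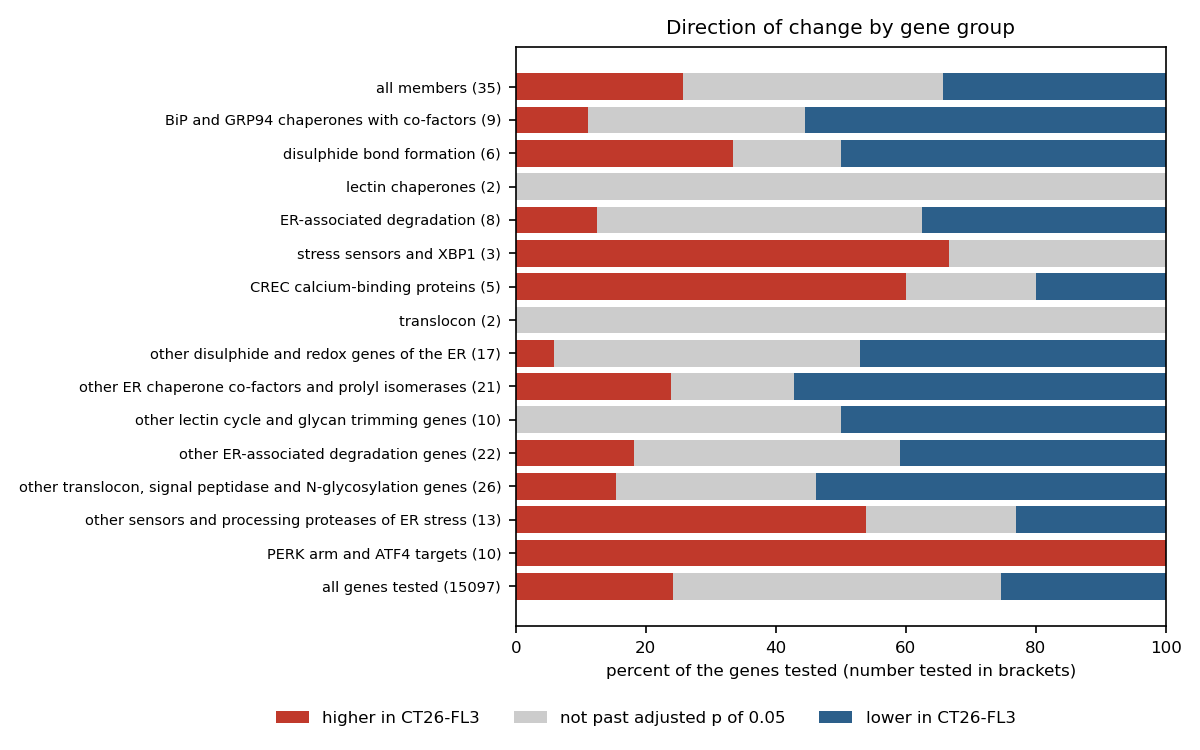
Share of the genes tested that rose (red), did not pass the test (grey) or fell (blue) in CT26-FL3, for each role, each list of other ER genes and all genes tested, with the number tested in brackets. All genes tested split into 24.1% higher and 25.3% lower, while the lists of other ER genes had more falls than rises. The exceptions were the sensors with 7 rises and 3 falls and the PERK arm and ATF4 list with 10 rises.

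All 10 genes of the PERK arm and ATF4 list rose in CT26-FL3, with a median log2 fold change of 1.03 (limma, 0 lower at an adjusted or an unadjusted p below 0.05). This list was chosen with its rise in these arrays known and is given for setting beside the chaperones only. Its name is a label, and whether PERK or another route raised these genes was not tested. The stress transcription factor genes Atf3 and Ddit3 were at 2.06 and 1.73. Ppp1r15a, which encodes the phosphatase subunit GADD34 that reverses the action of PERK, read 9446, 7918, 8568 and 9290.2 in CT26-FL3 arrays, against 3179, 2829.8, 3047 and 2710.4 in CT26 arrays. Its lines were far apart, with a rise of 1.58 (SE 0.07, adjusted p = 6.33e-07). Chaperone and disulphide genes on the same arrays had median changes of -0.19 and -0.18, and the difference between the lists was not tested.

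**Figure D5:**
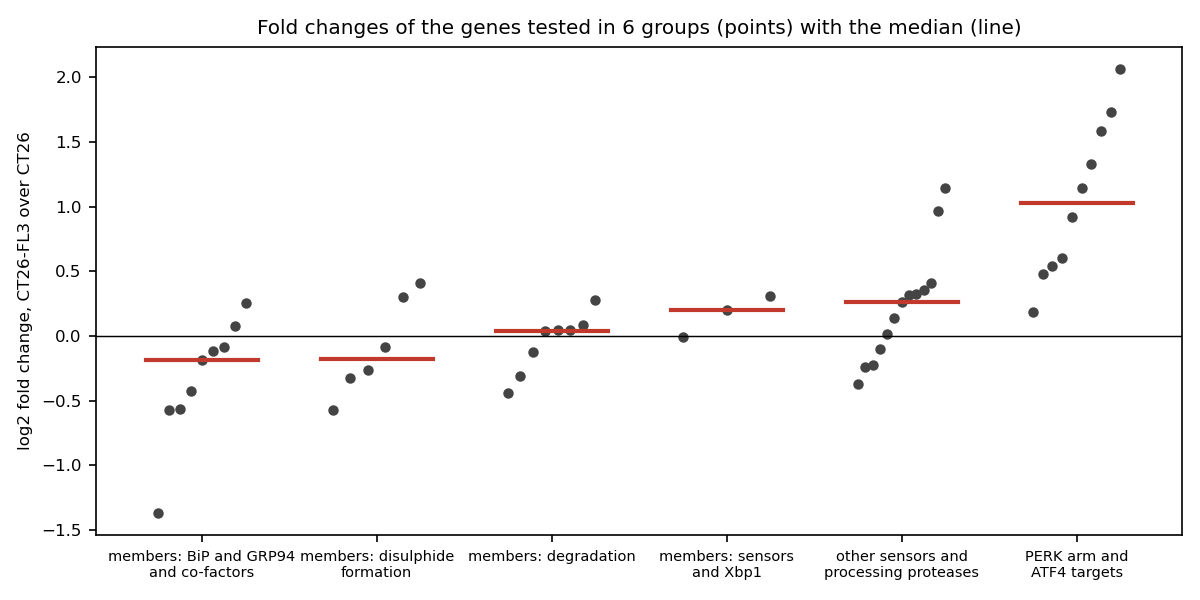
Log2 fold change of CT26-FL3 over CT26 for the genes tested in each group (points), with the group median (red line). The PERK arm and ATF4 list has all 10 genes above 0 and a median of 1.03, while the medians of the BiP and GRP94 group and of disulphide formation are -0.19 and -0.18.

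Markers of other cell types were read on the same arrays, since liver lesions were the source of CT26-FL3. The summed level of a list is set mostly by its brightest probes, so the calls of its genes are given beside it, and single markers are named after their values were seen. Of 12 fibroblast and stellate cell markers, 9 were above the limit on all 8 arrays, with a summed scaled intensity of 252912 to 273796 in CT26-FL3 arrays and of 248745 to 290810 in CT26 arrays, and Lum, Des and Lrat stayed under it on every array. That sum was mostly Col1a2, at 205422 in CT26-FL3 and 215420 in CT26, which did not pass the test. Among the 9 genes tested, 2 rose and 6 fell, and the rises were those of the proteoglycan gene Dcn (log2 fold change 3.32, SE 0.04, 9.96-fold) and of Fap (0.93, SE 0.08). The macrophage and Kupffer cell list summed to 1075 to 1157 in CT26-FL3 arrays and to 829 to 948 in CT26 arrays, with Ptprc, Adgre1, Clec4f, Timd4 and Vsig4 below the limit on every array. Of the 7 genes tested, Cd68 (0.38) and Mpeg1 (0.89) rose, Lyz2 fell and 4 did not pass. Lyz2 was above the limit on all 4 CT26 arrays and on no CT26-FL3 array. It was thus kept for the test through CT26 alone, and its p-value is not given as support. Its means were 7.8 in CT26-FL3 and 41.3 in CT26, so its fall is at least 2.03-fold. Such a bound takes, for each CT26-FL3 array, the dimmest signal among probes over its limit, or the probe's own value where that is higher. Hepatocyte markers summed to 226 to 242 in CT26-FL3 arrays and to 186 to 320 in CT26 arrays, with Alb, Cps1 and Cyp2e1 below the limit throughout, and 1 of 3 tested rose.

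Endothelial markers summed to 584 to 681 in CT26-FL3 arrays and to 507 to 591 in CT26 arrays, with Pecam1, Cdh5 and Kdr below the limit on every array, and 2 of 3 tested rose. Of these, Tie1 was above the limit on all 4 CT26-FL3 arrays and on no CT26 array, so it was kept for the test through CT26-FL3 alone. Plasma cell markers, a cell type rich in ER, summed to 3221 to 3498 in CT26-FL3 arrays and to 2296 to 2600 in CT26 arrays, with Jchain and Irf4 below the limit. Sdc1 made up most of that sum, at 2846 in CT26-FL3 and 1792 in CT26. Of the 4 genes tested, Sdc1 (0.67) and Prdm1 (1.91) rose, while Tnfrsf17 (-0.25) and Pou2af1 fell. Prdm1 was above the limit on all 4 CT26-FL3 arrays but on only 1 CT26 array, with a CT26 mean of 18.9. Its fold thus rests on values near the limit. Pou2af1 was above the limit on all 4 CT26 arrays and on no CT26-FL3 array, so it too was kept through CT26 alone and no p-value is given. Its means were 13.5 in CT26-FL3 and 97.3 in CT26, a fall of at least 4.76-fold. The labelled colon cancer type was checked with 11 colon epithelial markers, which summed to 3788 to 4027 in CT26-FL3 arrays and to 1843 to 1951 in CT26 arrays. The 5 tested all rose, among them Krt8 and Krt18, and Epcam, Cdh1, Cdx1, Vil1 and Krt19 stayed under the limit on all arrays. The macrophage, plasma cell and epithelial sums did not overlap and were higher in CT26-FL3, but genes of the macrophage and plasma cell lists moved in both directions. The part of these markers in the changes of the ER genes was not tested.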

How the data were processed

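Cy3-labelled total RNA of 4 CT26-FL3 and 4 CT26 samples was hybridised to 1-colour Agilent arrays, per the labels' protocols. The authors deposited, for each array, the intensity of every spot with its local background, and a table of log2 values per probe. The submitters' processing notes name Agilent Feature Extraction without a version. The deposited intensity appears background-subtracted, since negative controls had medians of 2.23 to 7.43 beside background medians of 21.1 to 24.4. The deposited log2 table holds values centred per probe (largest absolute probe median 9.55e-07), with column medians from -0.01 to 0.02. It correlated at r from 0.985 to 0.997 with the centred array values over 20852 probes, which sets its direction and scale. Its normalization between arrays is unknown.

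Of 45018 spots per array, 1639 controls and 3 to 76 failed gene spots were left out. Spots of a probe were averaged as log2 intensity and the array's 75th percentile was subtracted. As detection limit, 2.6 times the median standard deviation of an array's 153 negative controls was used (16.9 to 23.2 intensity units). Of 41174 probes, 23068 above it on at least 4 of 8 arrays were kept, and the brightest kept probe stood for its gene. The files hold no saturation mark. The probes of Hspa5, Hsp90b1, P4hb, Pdia6 and Sec61b were the brightest of the 36 genes, with highest intensities from 82934 to 165164 units. Whether such values were saturated or rescaled is not stated, so a difference in these 5 genes may be compressed. The highest intensity of a gene spot on an array ran from 629766 to 728713 units. The number of arrays limits the precision.

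Symbols came from the platform annotation, updated by gene identifier through a RefSeq table of GRCm38.p6 for 32524 probes. The fit used limma 3.58.1 under R 4.3.3 (functions lmFit and eBayes, two-sided, without a block), adjusted by Benjamini-Hochberg over 15097 genes with a threshold of 0.05, and was tested on simulated data. Values and calls of a gene's other probes came from a separate fit over all kept probes, adjusted over those probes. The same probe therefore has another adjusted p where it stands for its gene. The members and lists were chosen with earlier results of these data known. All 36 genes are named, and up to 3 called genes with the largest change in each list of other ER genes; others are said to be named after their values were seen. A gene that this rule names is not reported here. Replicate numbers are those of the sample names, as the titles number CT26-FL3 differently. Deviations from the line means correlated at 0.122, 0.112, 0.00593 and 0.165 between samples of the same number, so the numbers were not taken to pair them. Alternatives covered scaling, background, the filter, the choice of probe, failed spots, the deposited log2 table, blocks, subsets and single arrays left out. Promoter windows are RefSeq's. Protein sequences were not used here.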

Additional observations from a re-analysis of the deposited data

Results flagged for a closer look

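Calr stood out within the CT26-FL3 arrays. Replicate 4 read a scaled intensity of 26372, the lowest of the line, while the others lay between 30119 and 30692. On the log2 scale its gap to the nearest array, divided by the range of the line, was 0.876, above the 95% critical value of Dixon for 4 values. Of the 70 groups of 4 arrays examined over the 35 genes, 1 was past that value, and chance alone is known to pass about 1 group in 20. Calr was also lowest in replicate 4 of CT26, at 29731.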

How the results depend on the processing

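Over 23 alternatives, the direction and call of Dnajb11, Dnajc3, Sdf2l1, Creld2, Manf, Ero1a and Rcn3 were the same in each, and the log2 fold change of Rcn3 lay between 3.03 and 3.83. Within replicates 1 and 2 of both lines, which share a number in their file names, 3 genes rose and 5 fell, and within replicates 3 and 4, 5 rose and 8 fell, from 2 arrays per line. Leaving out 1 array at a time left 9 genes higher throughout, 11 to 12 lower, and a median from -0.10 to -0.05. With the kept probe of smallest absolute change, Hsp90b1 was at -0.14 (adjusted p = 0.167), Atf6 at -0.064 (adjusted p = 0.323) and Derl1 at 0.12 (adjusted p = 0.113), the sign of another probe in each case, and 6 genes rose and 11 fell. In that setting Calu, at 0.23, did not pass (adjusted p = 0.0595). The mean of a gene's probes gave 7 and 14. A replicate block by the sample-name numbers gave 9 and 12, with Edem2 lost and Calr gained, and 2 of 4 CT26-FL3 arrays correlated best with the CT26 array of their own number. The replicate block by the title numbers, where deviations correlated at 0.0988, -0.21 and 0.172, gave 7 and 9 over 3 numbers. With that block Pdia4, Hyou1, Edem2, Atf6 and Sdf4 were lost, the median was -0.0326, and 5575 of all genes were called. Edem2 was lost in 10 alternatives and Calr passed in 6. Over all genes, 7472 were called, against 4205 within replicates 1 and 2 and 4183 within replicates 3 and 4. Of the 14 counts of the lists of other ER genes, 9 moved by over 1.5 times in each of those subsets, 6 with the block by title numbers, 4 with no filter and 3 or fewer in any other setting. The cause of these shifts was not tested. The deposited log2 table and the file-name number as a block each gave 9 and 12. Probes near the detection limit, such as that of Derl3, have no usable level.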
